A study of Mus musculus with 48 samples.

Results

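The mitochondrial genome genes were studied in RNA-seq libraries of mouse tibialis anterior (TA) muscle. They are the 37 genes whose name starts with mt- and which lie on chromosome MT, of 56748 genes in the deposited tables: 13 mRNA genes, 2 rRNA genes and 22 tRNA genes. TA muscles came from male mice aged 39 to 55 weeks, either WT or FoxP1SkmKO, which are homozygous FoxP1fl/fl x ACTA1-Cre mice that lack FoxP1 in skeletal muscle fibers, since the ACTA1 promoter drives Cre there. KPC mice carried tumors grown from KPC cells, a mouse pancreatic cancer line, injected into the pancreas, and control mice had the same surgery with sterile PBS or saline. Muscles were taken in constant darkness every 4 h from circadian time (CT) 18 to CT38, from 2 mice for each genotype, condition and time, which gave 24 groups and 48 libraries. WT mice are C57BL/6J in the labels but FoxP1fl/fl without Cre in the design text of the series, so that whether WT mice carried the floxed allele is not settled here. Tumors came from a single KPC line, and the 6 times covered less than 1 full cycle, so a 24 h rhythm and a drift over the collection cannot be told apart.

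Mitochondria keep a small circular genome that is transcribed from both strands into long precursors. Most of its mRNAs and both rRNAs are flanked by tRNAs, and the tRNAs are cut out to release the RNAs between them. The 13 mRNAs encode core subunits of the respiratory chain and ATP synthase, and the rRNAs and tRNAs serve only the ribosomes that translate them inside the organelle. Skeletal muscle, which uses much ATP, is rich in mitochondrial transcripts.

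The sequences below carry the results on levels, on time of day and on reads shared with a nuclear copy. All were read from the reference genome of build GRCm39, which is mm39, and the start and end of every member equalled those of the annotation. They are given 5′ to 3′ on the strand of the gene, with the anticodon in capitals for tRNA genes. The neighbours mt-Th (histidine, chrM:11546-11612, plus strand), mt-Ts2 (serine, chrM:11613-11671, plus strand) and mt-Tl2 (leucine, chrM:11671-11741, plus strand) were the tRNA genes that varied most with circadian time, and mt-Te (glutamate, chrM:14071-14139, minus strand) and mt-Tp (proline, chrM:15356-15422, minus strand) had the highest levels of the tRNA genes.
mt-Th: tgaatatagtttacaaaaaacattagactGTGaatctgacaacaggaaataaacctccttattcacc
mt-Ts2: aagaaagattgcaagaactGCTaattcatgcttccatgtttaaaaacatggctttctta
mt-Tl2: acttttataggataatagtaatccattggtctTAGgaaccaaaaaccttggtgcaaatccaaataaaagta
mt-Te: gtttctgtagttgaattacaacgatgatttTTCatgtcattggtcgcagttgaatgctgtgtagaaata
mt-Tp: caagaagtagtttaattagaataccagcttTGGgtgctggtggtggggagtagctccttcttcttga

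A stretch of chromosome 1, chr1:24650616-24655269 on the minus strand, was nearly identical to chrM:6390-11042, with 99.936% identity over 4654 aligned bases, 2 mismatches and 1 gap. With positions counted along the mitochondrial genome, and the mitochondrial base given before the chromosome 1 base, the mismatches were A6393T in mt-Co1 and T9461C in mt-Nd3, and the gap lay in mt-Tr. Less similar matches lay on chromosomes 2 (97.4% identity, chrM:4441-7699), 13 (95.2%, chrM:12446-13400), 4 (93.0%, chrM:12488-15359) and 11 (90.7%, chrM:6216-6871). They reach into the mRNA genes mt-Nd2, mt-Nd5, mt-Nd6 and mt-Cytb, which lie outside the chromosome 1 stretch. Also outside that stretch, they reach into the tRNA genes mt-Tw, mt-Ta, mt-Tn, mt-Tc, mt-Ty, mt-Te, mt-Tt and mt-Tp. Reads shared with these matches were not examined, and the copy below is that on chromosome 1. The windows around the mismatch in mt-Nd3 are shown because they hold the sole difference between that mRNA gene and its copy. The capital marks the differing base, in chrM:9441-9481 (plus strand) and chr1:24652178-24652218 (minus strand).
Mitochondrial genome at mt-Nd3: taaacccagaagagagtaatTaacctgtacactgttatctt
Chromosome 1 copy: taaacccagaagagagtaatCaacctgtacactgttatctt

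The 48 libraries held 14480867 to 20787784 counts on genes, with a median of 16602092. Summed FPKM of fast-fiber markers had medians of 62302 to 63290 in the 4 combinations of genotype and condition, against 20.6 to 25.7 for slow-fiber markers. Foxp1 mRNA did not separate the genotypes, with FPKM of 0.430 to 0.971 in WT control, 0.455 to 0.757 in WT KPC, 0.430 to 0.642 in FoxP1SkmKO control and 0.419 to 0.653 in FoxP1SkmKO KPC libraries. The WT control libraries at CT26 stood apart from the other libraries, since 2356 of 15637 genes tested (15.1%) differed from WT controls at CT22 and CT30, whereas the same comparison called 0 to 10 genes in the other 3 combinations. Values without CT26 are given where results rest on it. They leave CT26 out of the comparison, while its libraries stayed in the fit. In whole muscle, fewer cells of a type and less RNA per cell cannot be told apart.

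Mitochondrial genes took 10.7 to 15.8% of all counts on genes, with a median of 13.3%, and mRNAs took 98.1% of the mitochondrial counts. The share spanned 11.4 to 14.7% (median 13.7%) in WT control, 10.7 to 14.6% (median 13.3%) in WT KPC, 12.5 to 15.4% (median 13.2%) in FoxP1SkmKO control and 10.7 to 15.8% (median 12.7%) in FoxP1SkmKO KPC libraries. All 4 ranges overlapped. The rRNAs held 1.64% and the tRNAs 0.221% of mitochondrial counts. Messenger RNA was purified with poly-T beads according to the labels, so these are levels of the RNA that this step retained and not of total mitochondrial rRNA or tRNA.

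Levels are given as FPKM (counts per kilobase of gene, scaled to the counts of the library), which divides by gene length. The mRNA of mt-Co1, the core subunit of cytochrome c oxidase (complex IV), had the highest mean, with FPKM of 22828 to 35505 and a median of 28331. Among complex I mRNAs, mean FPKM was 19183 for mt-Nd1, 13772 for mt-Nd2, 9236 for mt-Nd4, 6732 for mt-Nd5 and 6104 for mt-Nd6, the only mRNA gene on the minus strand. mt-Cytb, the complex III subunit, had a mean of 18381. These 7 mRNAs were steady between mice: the SD within groups of 2 mice was 0.12 to 0.19 on the log2 scale.

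The other 6 mRNAs were lower and much more variable. Mean FPKM was 1665 for mt-Atp6 and 40.2 for mt-Atp8, both ATP synthase subunits, 1095 for mt-Co2 and 1007 for mt-Co3, both complex IV subunits, and 45.0 for mt-Nd3 and 1016 for mt-Nd4l, both complex I subunits. Their SD within groups was 0.44 to 0.96 on the log2 scale, with a median of 0.54. All 6 lie wholly within the stretch that is copied on chromosome 1, whereas the copy spans 31.3% of mt-Co1, 63.6% of mt-Nd4 and none of the other 5 mRNA genes. As a group, the 6 held 2.28% of mitochondrial counts. How multiply mapped reads were treated is not given in the sources used here, so levels of the genes within the copied stretch are uncertain.

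**Figure D1:**
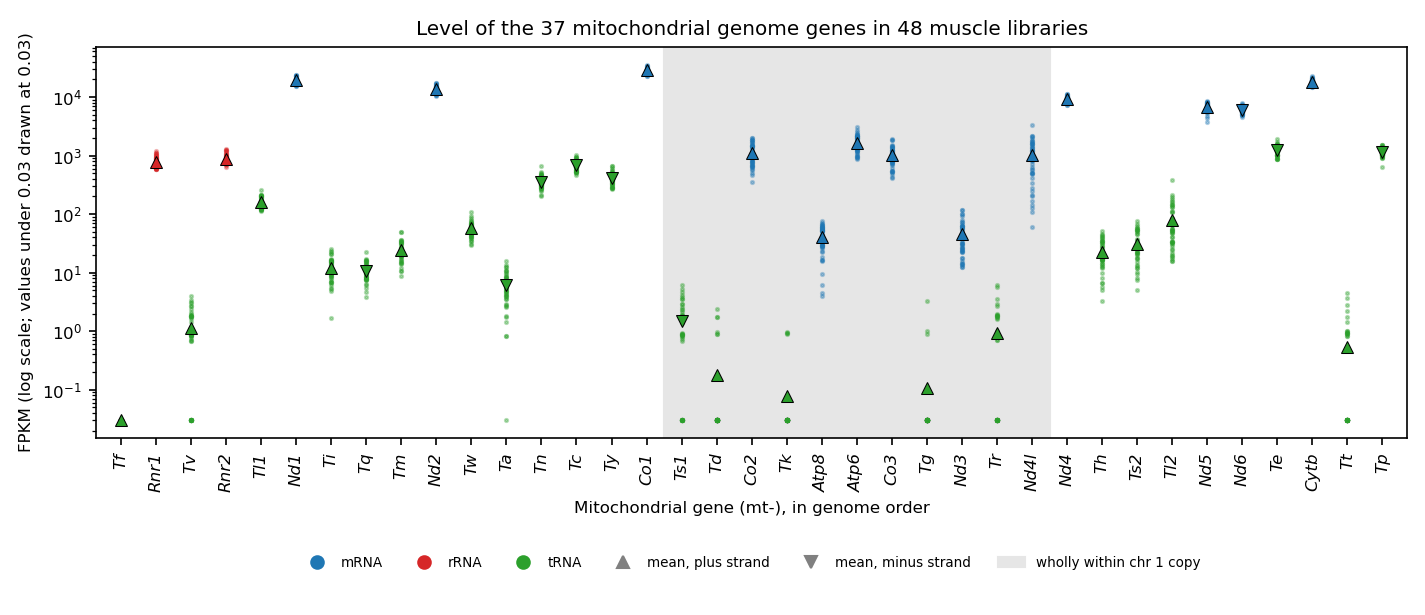
FPKM on a log axis of the 37 mitochondrial genes in genome order, with 1 point per library (48 libraries, values under 0.03 drawn at 0.03) and triangles for the mean, pointing up for genes on the plus strand and down for genes on the minus strand. The grey band covers the genes that lie wholly within the stretch copied on chromosome 1. The 6 mRNA genes there have means between 40.2 and 1665 and spread more widely than the 5 outside the copy (6104 to 19183) and the 2 that are copied in part (9236 for mt-Nd4 and 28528 for mt-Co1).

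The nuclear copies themselves carried counts. For mt-Nd3, the copy Gm28438 (chr1:24651856-24652200) took a median of 82.4% of the counts on the pair, with a range over libraries of 58.5 to 93.8%. The share was 29.2% (12.0 to 52.2%) for Gm28661 against mt-Co2, 27.5% (13.8 to 47.4%) for Gm10925 against mt-Atp6, 20.2% (10.9 to 36.1%) for Gm28437 against mt-Co3 and 16.9% (5.92 to 83.3%) for Gm10222 against mt-Nd4l. Where the copy covers part of a gene, the share was small, with 1.50% for Gm28439 against mt-Nd4 and 0.346% for Gm29216 against mt-Co1. The split thus differed between libraries by severalfold for mt-Nd4l, the mRNA with the widest spread.

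**Figure D2:**
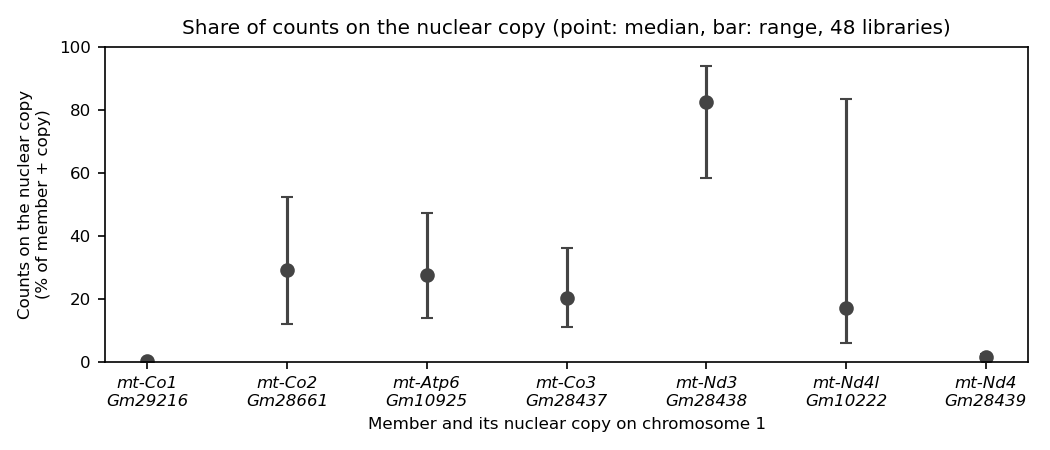
Share of counts that fell on the chromosome 1 copy, in % of the counts on a mitochondrial gene and its copy together, for 7 pairs; points are medians and bars the range over 48 libraries. The median is 82.4% for mt-Nd3, 16.9 to 29.2% for the next 4 pairs and 1.50% or less for mt-Co1 and mt-Nd4, which are only partly copied.

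Some members also share bases with each other. mt-Atp8 and mt-Atp6 overlap by 43 bases and mt-Nd4l and mt-Nd4 by 7 bases on the same strand, and mt-Nd5 and mt-Nd6 overlap by 14 bases on opposite strands. The labels allow for directional or non-directional libraries and no source used here gives the strand setting of the counting, so reads from the 2 strands at the same place cannot be told apart. This bears on mt-Nd6 and on the 8 tRNA genes of the minus strand.

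The 2 rRNAs, 12S (mt-Rnr1) and 16S (mt-Rnr2), are the RNA core of the mitochondrial ribosome. FPKM was 584 to 1210 (median 751) for mt-Rnr1 and 625 to 1281 (median 833) for mt-Rnr2. Both were below all mRNAs outside the copied stretch and within the span of means of the 6 inside it, and neither gene lies in the copied stretch.

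The tRNA genes are 59 to 75 bases long, shorter than a single read. Their FPKM is therefore not comparable with that of the longer mRNA and rRNA genes. Within this class, mean levels ran from 0 to 1243 FPKM. The highest means were 1243 FPKM for mt-Te, 1160 for mt-Tp and 692 for mt-Tc (cysteine). At the other end, mt-Tf (phenylalanine) was at 0 in all 48 libraries, and mt-Tk (lysine) and mt-Tg (glycine) had means of 0.077 and 0.108 FPKM and were at 0 in 44 and 45 libraries. A count of 0 is a limit of these poly-T libraries and does not show that the tRNA is absent. The 8 genes on the minus strand had a median of 383 FPKM (1.51 to 1243) and the 14 on the plus strand one of 6.64 FPKM (0 to 160). The 5 tRNA genes within the copied stretch had means of 0.077 to 1.51 FPKM.

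Tests were run on the counts of all genes, with the quasi-likelihood model of edgeR and Benjamini-Hochberg adjustment, and 15637 genes passed the filter on low counts. Of the 37 members, 29 passed: all mRNA and rRNA genes and 14 tRNA genes. The 8 not tested were mt-Tf, mt-Tv, mt-Ts1, mt-Td, mt-Tk, mt-Tg, mt-Tr and mt-Tt. Called means an adjusted p under 0.05, and errors of log2 differences are standard errors of the fit.

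The question of the study was how tumors alter muscle transcripts over the day, and whether this needs FoxP1. Averaged over the 6 times, tumors went with more of both mitochondrial rRNAs in WT mice and with no called change in any mitochondrial mRNA or tRNA. In WT mice, 280 of 15637 genes were called (1.79%, with 1.16% higher and 0.627% lower in KPC mice), and 2 of the 29 members tested, both higher. At an unadjusted p under 0.05 were 5 members, against 15.2% of all genes. The 2 are the rRNAs, so all members of that class were called and none of the others.

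mt-Rnr1 had FPKM of 584, 683 and 874 (lowest, median and highest of 12 mice) in WT control mice and of 608, 829 and 1119 in WT KPC mice. The ranges overlapped, while the median of KPC mice was near the top of the control range. The log2 difference was 0.28 ± 0.072 (12 against 12 mice, edgeR adjusted p = 0.032). mt-Rnr2 had 625, 799 and 913 in WT control and 746, 950 and 1281 in WT KPC mice. The upper part of the KPC range lay above all controls. Its log2 difference was 0.27 ± 0.066 (adjusted p = 0.028).

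Some markers of other cell types were called in WT KPC mice. In WT KPC mice, 3 of 5 fibroblast markers were lower, Col1a1 by a log2 difference of -0.91, Col1a2 of -0.80 and Col3a1 of -0.71, and the summed FPKM of the 5 was 26.2 to 89.5 (median 52.9) in WT control and 16.9 to 72.9 (median 32.2) in WT KPC mice, with no marker at 0. Of 5 endothelial markers, Kdr was called lower (-0.27), while 2 of the 5 had a positive sign. Their summed FPKM was 50.9 to 65.2 in WT control and 51.0 to 64.9 in WT KPC mice. Of 10 fast-fiber markers, Actn3 was called higher (0.18), while 5 of the 10 had a negative sign. No macrophage or slow-fiber marker was called, and neither was Malat1 or Neat1, which are retained in nuclei. All 7 macrophage markers had a positive sign (median 0.19), as both rRNAs had. In FoxP1SkmKO mice, all 5 fibroblast markers were negative (median -0.65) and 0 were called. All 5 were at an unadjusted p under 0.05 there, against 12.4% of all genes. The part of any of these in the rRNA result was not tested.

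The rRNA calls were close to the threshold. The mt-Rnr1 call was lost, at adjusted p up to 0.093 and log2 differences of 0.24 to 0.29, without any 1 of 13 libraries, which were WT control CT18 replicate 2, CT22 replicate 1, CT26 replicate 1, CT30 replicate 2, CT34 replicate 2 and CT38 replicates 1 and 2, and WT KPC CT18, CT22, CT26 and CT30 replicate 1 and CT34 and CT38 replicate 2. The mt-Rnr2 call was lost (adjusted p up to 0.080, log2 differences of 0.23 to 0.27) without any 1 of 8 of these, namely WT control CT18 replicate 2, CT22 replicate 1, CT26 replicate 1 and CT30 replicate 2 and WT KPC CT18, CT22 and CT30 replicate 1 and CT38 replicate 2. An additive model of group and circadian time also lost both calls (adjusted p = 0.15 for mt-Rnr1 and 0.096 for mt-Rnr2), whereas DESeq2 kept both (0.018 and 0.013). Without CT26 in the comparison, the log2 differences were 0.42 for mt-Rnr1 (adjusted p = 0.0034) and 0.36 for mt-Rnr2 (adjusted p = 0.0086).

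The mRNAs showed differences that did not pass the adjustment. Of 13 mRNAs, 11 had a negative log2 difference in WT KPC mice, with a median of -0.095, against a median of 0.0016 over all genes tested, and none was called. The signs were not the same at each time: 9 of 13 were positive at CT22 and 11 of 13 at CT34 (median 0.11), whereas all 13 were negative at CT38 (median -0.48) and 9 to 12 at CT18, CT26 and CT30. Without CT26, 11 of 13 were negative in the average (median -0.083). The complex IV mRNA mt-Co3 had the largest size, with FPKM of 728, 1093 and 1941 in WT control and 417, 802 and 1841 in WT KPC mice. The ranges overlapped over most of their length. Its log2 difference of -0.54 ± 0.16 missed the threshold (adjusted p = 0.072), and it lies in the copied stretch. Over the fits that left out 1 library its adjusted p was 0.048 to 0.15.

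The 7 abundant mRNAs, of which mt-Co1 and mt-Nd4 are copied in part, differed little in mean level. mt-Cytb had FPKM of 15635, 19018 and 21316 in WT control and 15245, 17704 and 19727 in WT KPC mice. Both ranges covered nearly the same span, and the log2 difference was -0.11 ± 0.048 (adjusted p = 0.27). Differences were -0.047 ± 0.046 for mt-Co1, -0.040 ± 0.052 for mt-Nd1, -0.025 ± 0.057 for mt-Nd2, 0.024 ± 0.070 for mt-Nd5 and -0.085 ± 0.056 for mt-Nd6. With the summed mitochondrial mRNA count as library size, mt-Co1, mt-Nd1 and mt-Nd2 took a positive sign, so no direction is read from them. The sign of mt-Nd1 and of mt-Nd5 also turned without CT26. mt-Nd4 differed by -0.095 ± 0.051.

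The rest of the copied mRNAs had wide errors. Differences were -0.21 ± 0.15 for mt-Co2, 0.093 ± 0.17 for mt-Atp6, -0.26 ± 0.25 for mt-Atp8, -0.27 ± 0.21 for mt-Nd3 and -0.18 ± 0.32 for mt-Nd4l. None was distinguishable from 0 at this depth and number of mice. With the counts of the nuclear copy added, mt-Nd4l changed sign, to 0.026.

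tRNA genes were not called either, and 9 of 14 had a positive sign, with a median of 0.097. The highest ones differed by 0.13 ± 0.062 for mt-Te, -0.088 ± 0.074 for mt-Tp and 0.15 ± 0.087 for mt-Tc. With mRNAs at slightly negative and rRNAs at positive differences, the count of rRNA per 1000 mitochondrial mRNA counts was 14.5 ± 1.50 (SD, n = 12) in WT control and 18.2 ± 2.49 in WT KPC mice. This ratio is a description and was given no test.

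**Figure D3:**
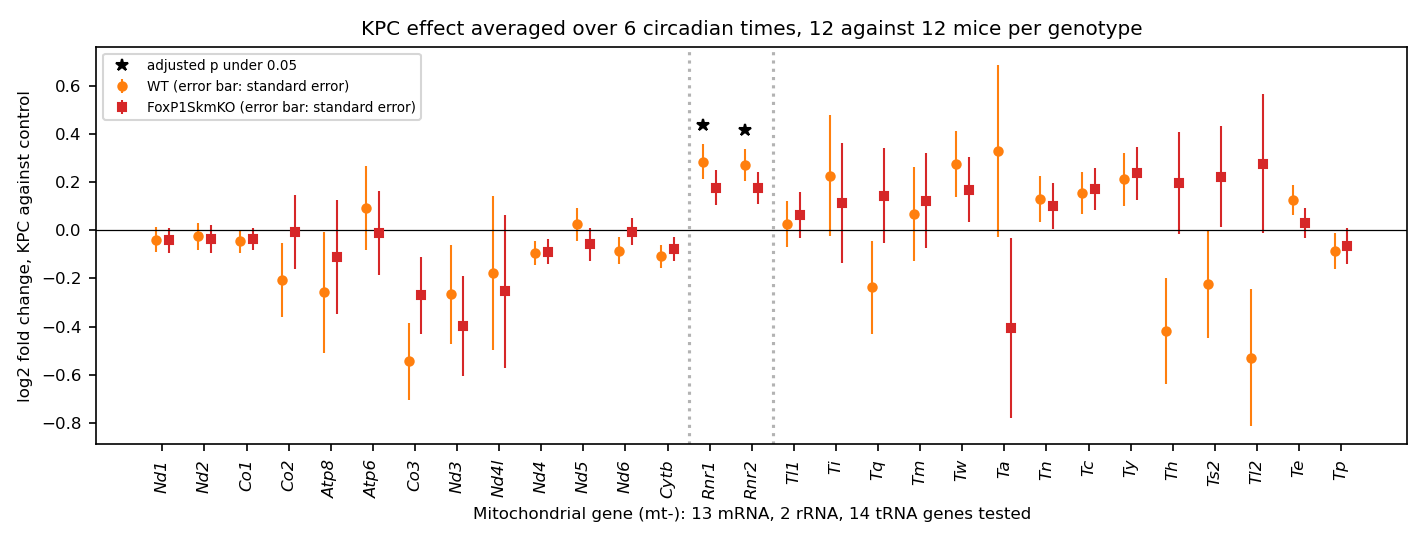
Log2 fold change of KPC against control mice, averaged over 6 circadian times, for the 29 mitochondrial genes tested in WT (circles) and FoxP1SkmKO mice (squares); bars are standard errors and stars mark an adjusted p under 0.05. Only mt-Rnr1 (0.28) and mt-Rnr2 (0.27) in WT mice carry a star, and both rRNAs are at 0.18 in FoxP1SkmKO mice.

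In FoxP1SkmKO mice, the same comparison called 67 of 15637 genes (0.428%) and 0 of 29 members, with 3 at an unadjusted p under 0.05 (12.4% of all genes) and 0 called by DESeq2. mt-Rnr1 had FPKM of 603, 675 and 1210 in control and 632, 794 and 1064 in KPC mice. The ranges overlapped, and the 2 highest control values were both of CT38. The log2 difference was 0.18 ± 0.071 (adjusted p = 0.28). mt-Rnr2 had 729, 802 and 1191 against 725, 925 and 1227, a difference of 0.18 ± 0.066 (adjusted p = 0.23).

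All 13 mRNAs had a negative sign in FoxP1SkmKO mice, with a median of -0.059, and 12 of 14 tRNA genes a positive one. This did not hold at each time, since 10 of 13 mRNAs were positive at CT18 and again at CT34 and 7 at CT22, against 2 at CT26, CT30 (median -0.31) and CT38, and 0 of 14 tRNA genes were positive at CT30. Without CT26, 11 of 13 mRNAs were negative (median -0.057) and 11 of 14 tRNA genes positive. The mRNAs ranged from -0.40 ± 0.21 for mt-Nd3 to -0.0066 ± 0.056 for mt-Nd6. The signs of mt-Co1, mt-Nd1, mt-Nd2, mt-Nd6, mt-Atp6 and mt-Co2 turned with the summed mitochondrial mRNA count as library size, and that of mt-Nd3 with the counts of its copy added (0.093). The rRNA count per 1000 mRNA counts was 15.7 ± 2.88 in control and 18.5 ± 3.70 (SD, n = 12) in KPC mice.

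The tumor effect was not shown to differ between the genotypes for any member. The difference of the averaged effects was 0.11 ± 0.10 for mt-Rnr1 (adjusted p = 0.89) and 0.094 ± 0.093 for mt-Rnr2 (adjusted p = 0.90). No gene of 15637 was called in this comparison by edgeR, with 1020 genes (6.52%) and 0 members at an unadjusted p under 0.05, and DESeq2 called 0 members. The rRNA calls in WT mice and their absence in FoxP1SkmKO mice thus do not show a difference between the genotypes.

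Genotype alone left the members uncalled. In control mice, 538 genes (3.44%) differed between FoxP1SkmKO and WT, 0 of 29 members among them, with 1 member (mt-Tl2, -0.59 ± 0.28) at an unadjusted p under 0.05 (17.2% of all genes). In KPC mice, 50 genes (0.32%) were called and again 0 members, with 1 member (mt-Th, 0.46 ± 0.22) at an unadjusted p under 0.05 (10.8% of all genes). DESeq2 called 0 members in either. In control mice the mRNAs spanned -0.30 ± 0.15 for mt-Co2 to 0.47 ± 0.32 for mt-Nd4l, and the rRNAs were at 0.076 ± 0.071 and 0.074 ± 0.066.

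At single times, with 2 mice against 2, edgeR called no member in any of the 12 comparisons, although 43 of 348 tests had an unadjusted p under 0.05, against 8.49% of the tests of all genes. The share of all genes called was 7.17% in WT mice at CT26, 0.0064% at CT30, 0.0256% at CT38 and 0% at the other times, and in FoxP1SkmKO mice 0.0192% at CT18, 0.0384% at CT26, 0.0064% at CT38 and 0% at the other times. DESeq2 on all libraries made 2 member calls over the 12 comparisons, DESeq2 on the 4 libraries of each comparison, which takes its spread from 4 mice, made 19, and edgeR on the same 4 libraries 4.

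mt-Rnr1 had its largest single-time difference in WT mice at CT34, with FPKM of 584 and 630 in the 2 control and 1109 and 1119 in the 2 KPC mice. The KPC mice were far above the controls. The log2 difference was 0.89 ± 0.18, at an unadjusted p of 1.74e-05 that did not pass the adjustment. It was 0.59 ± 0.18 at CT30, 0.30 ± 0.18 at CT22 and 0.17 ± 0.18 at both CT18 and CT38. At CT26 it had the opposite sign, -0.41 ± 0.18, with controls at 857 and 874 and KPC mice at 608 and 701.

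For mt-Rnr1, both KPC mice were above both controls at CT22, CT30, CT34 and, narrowly, at CT38, overlapped with them at CT18 and were below them at CT26. The differences of mt-Rnr2 were 0.15 at CT18, 0.36 at CT22, -0.16 at CT26, 0.42 at CT30, 0.72 at CT34 and 0.13 at CT38. Both rRNAs thus had the same order of signs over the day. Beyond the averaged calls, the mt-Rnr1 effect differed between times in WT mice (edgeR F test of 5 contrasts, adjusted p = 0.047), where 138 genes were called (0.883%). It no longer passed without CT26 (adjusted p = 0.999) or without any 1 of 31 libraries, the highest value being 0.39 without WT control CT26 replicate 1. It passed only when the library left out was a FoxP1SkmKO control of CT18 or CT38, a FoxP1SkmKO KPC of CT18, CT22 or CT34, a WT control of CT22 or replicate 2 of CT18, a WT KPC of CT18, or replicate 2 of WT KPC at CT30 or CT38. In FoxP1SkmKO mice no gene was called by edgeR (0%), with 2 members, mt-Te and mt-Nd3, at an unadjusted p under 0.05.

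**Figure D4:**
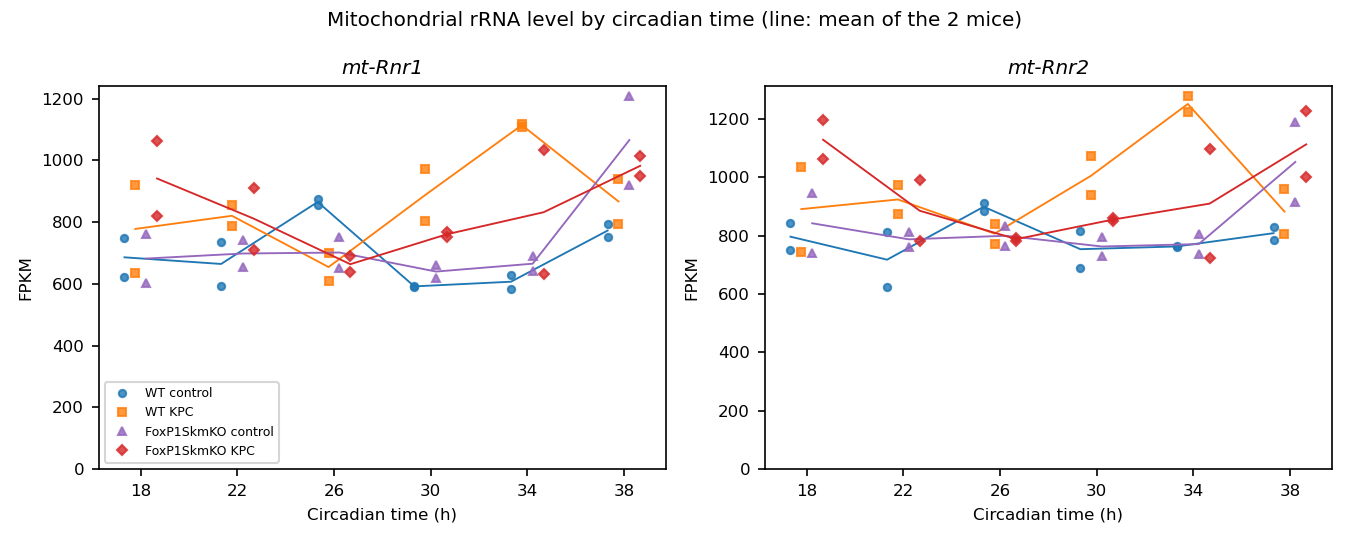
FPKM of mt-Rnr1 and mt-Rnr2 against circadian time in hours, with 1 point per mouse, 2 mice per group and time, and lines through their mean. For mt-Rnr1 at CT34, WT KPC mice are at 1109 and 1119 and WT control mice at 584 and 630, while at CT26 the WT control mice (857 and 874) are above the WT KPC mice.

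WT control mice at CT26 were compared with their neighbours at CT22 and CT30, because these libraries stood apart. Of 29 members, mt-Nd5 was lower and mt-Rnr1 higher, against 8.65% of all genes lower and 6.41% higher. At an unadjusted p under 0.05 were 7 members and 28.1% of all genes. mt-Nd5 had FPKM of 3759 and 5967 at CT26, 5364 and 7041 at CT22, and 6852 and 8117 at CT30. The lower of the mice at CT26 was below all 4 neighbours and the other was within their range. The log2 difference was -0.48 ± 0.15 (adjusted p = 0.027), which fell to -0.18 (adjusted p = 0.67) without the CT26 replicate 1 library and was lost without CT22 replicate 2 (-0.38, adjusted p = 0.12) or CT30 replicate 1 (-0.42, adjusted p = 0.094).

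mt-Rnr1 had FPKM of 857 and 874 at CT26, 593 and 736 at CT22, and 589 and 595 at CT30 in WT control mice. Both mice at CT26 were above all 4 neighbours. The difference was 0.47 ± 0.15 (adjusted p = 0.031), and the adjusted p was 0.060 to 0.20 without CT22 replicate 1, CT26 replicate 1 or 2, or CT30 replicate 1 or 2. In the other 3 combinations the comparison called 0 members (0.0128% of all genes in WT KPC, 0% in FoxP1SkmKO control and 0.064% in FoxP1SkmKO KPC mice), with mt-Rnr1 at -0.39 ± 0.15, 0.068 ± 0.15 and -0.25 ± 0.15. At an unadjusted p under 0.05 were 2, 2 and 0 members, against 7.03%, 6.63% and 10.2% of all genes. Of nuclear genes for oxidative phosphorylation subunits, 36 of 80 were higher at CT26 in WT control mice, against 6.41% of all genes.

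Circadian time was the factor with which most members varied. Averaged over the 4 combinations of genotype and condition, levels of 18 of the 29 members differed between the 6 times, against 40.6% of all genes tested (6354). They were 10 of 13 mRNAs, 1 of 2 rRNAs and 7 of 14 tRNA genes. Markers of other cell types moved with time too: 7 of 7 macrophage, 4 of 5 fibroblast, 4 of 5 erythroid, 3 of 5 endothelial and 5 of 10 fast-fiber markers were called, as were both nuclear-retained RNAs, against 0 of 7 slow-fiber and 0 of 5 adipocyte markers. From CT18 to CT34, the median summed FPKM of 8 libraries went from 19.4 (13.4 to 36.8) to 8.39 (6.26 to 13.6) for macrophage markers, from 62.1 (22.2 to 72.7) to 24.9 (16.9 to 61.8) for fibroblast markers and from 228 (138 to 306) to 146 (81.7 to 250) for erythroid markers. It was 58.1 (52.7 to 61.2) and 53.5 (50.4 to 57.5) for endothelial markers, 64939 and 62823 for fast-fiber markers and 87.3 (67.6 to 92.7) and 95.5 (86.4 to 101) for Malat1 and Neat1 together. Apart from 1 of 6 adipocyte markers, no marker was at 0 in all libraries, and their part in the time differences was not tested. The size of these differences split the members. Between the highest and the lowest time, the mRNAs mt-Nd1, mt-Nd2, mt-Nd4 and mt-Nd6 spanned 0.22 to 0.27 on the log2 scale, whereas mt-Tl2, mt-Nd3 and mt-Nd4l spanned 2.50, 2.37 and 2.27, the 36th, 46th and 53rd widest of 15637 genes.

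The tRNA genes mt-Th, mt-Ts2 and mt-Tl2, which follow each other between mt-Nd4 and mt-Nd5, had the same course. They were singled out after their values were seen. For mt-Th, the lowest, median and highest FPKM of the 8 libraries per time were 3.23, 11.2 and 22.9 at CT18, 5.63, 13.5 and 20.1 at CT22, 16.1, 17.3 and 24.7 at CT26, 23.0, 34.3 and 46.2 at CT30, 22.3, 32.3 and 50.5 at CT34, and 11.8, 20.7 and 42.0 at CT38. Every library at CT30 was above every library at CT18 and at CT22. The time test gave an adjusted p of 3.27e-06.

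For mt-Ts2 the same values were 8.10, 16.0 and 27.9 at CT18, 5.04, 16.7 and 29.1 at CT22, 7.59, 24.7 and 30.1 at CT26, 26.1, 53.4 and 75.2 at CT30, 26.1, 47.6 and 66.7 at CT34, and 20.0, 32.9 and 56.7 at CT38. Most libraries at CT30 and CT34 were above all those of CT18 to CT26, with a small overlap (adjusted p = 9.38e-07). For mt-Tl2 they were 15.7, 20.7 and 65.1 at CT18, 16.0, 31.3 and 48.4 at CT22, 18.9, 50.3 and 66.2 at CT26, 53.0, 124 and 196 at CT30, 46.9, 153 and 377 at CT34, and 33.1, 53.4 and 145 at CT38. Levels at CT30 lay above all those at CT22 (adjusted p = 1.37e-07).

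For mt-Tl2, the mean rose from CT18 to CT34 in each combination of genotype and condition, but in WT control mice this rested on 1 mouse. The mean mt-Tl2 FPKM of 2 mice went from 49.4 at CT18 to 212 at CT34 in WT control, from 16.5 to 125 in WT KPC, from 19.1 to 153 in FoxP1SkmKO control and from 23.2 to 158 in FoxP1SkmKO KPC mice. The 2 WT control mice at CT34 were at 46.9 and 377. The lower of them was within the range of all libraries at CT18 (15.7 to 65.1). Counts behind these 3 genes were low, with library medians of 23.5 for mt-Th, 28.5 for mt-Ts2 and 61.5 for mt-Tl2. Their calls held in all 9 alternative settings and in all 48 fits that left out 1 library. The flanking mRNAs did not share the span, since mt-Nd4 varied by 0.23 and mt-Nd5 by 0.41 on the log2 scale.

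Short nuclear genes were counted beside the tRNA genes. Of 34 tested nuclear genes with a listed length under 150 bases, 9 (26.5%, against 40.6% of all genes) differed between times and 14 were lower at CT18 and CT22 than at CT30 and CT34. Of 368 with a listed length under 500 bases, 77 (20.9%) differed between times. Among these 368, 224 were lower at CT18 and CT22, against 8009 of the 15637 genes tested. The part of gene length in the course of the tRNA genes was not tested. Of the 14 tested mitochondrial tRNA genes, 10 were lower at CT18 and CT22, and 7 were called. The other called tRNA genes were mt-Te, mt-Tp, mt-Tw (tryptophan, adjusted p = 0.012) and mt-Tl1 (leucine, 0.042), and the call of mt-Tl1 was lost in 24 of the 48 fits that left out 1 library (up to 0.11).

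mt-Te, the highest tRNA gene, had another course, with its highest mean level at CT18 and its lowest at CT38. Its FPKM was 1297, 1433 and 1902 at CT18 and 863, 1006 and 1259 at CT38, so that all libraries at CT18 were above all at CT38, with medians of 1227 to 1291 at the 4 times between (adjusted p = 4.27e-05). mt-Tp differed by less, with deviations from its mean over times of -0.17 at CT18 and 0.21 at CT34 on the log2 scale (adjusted p = 0.0035).

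**Figure D5:**
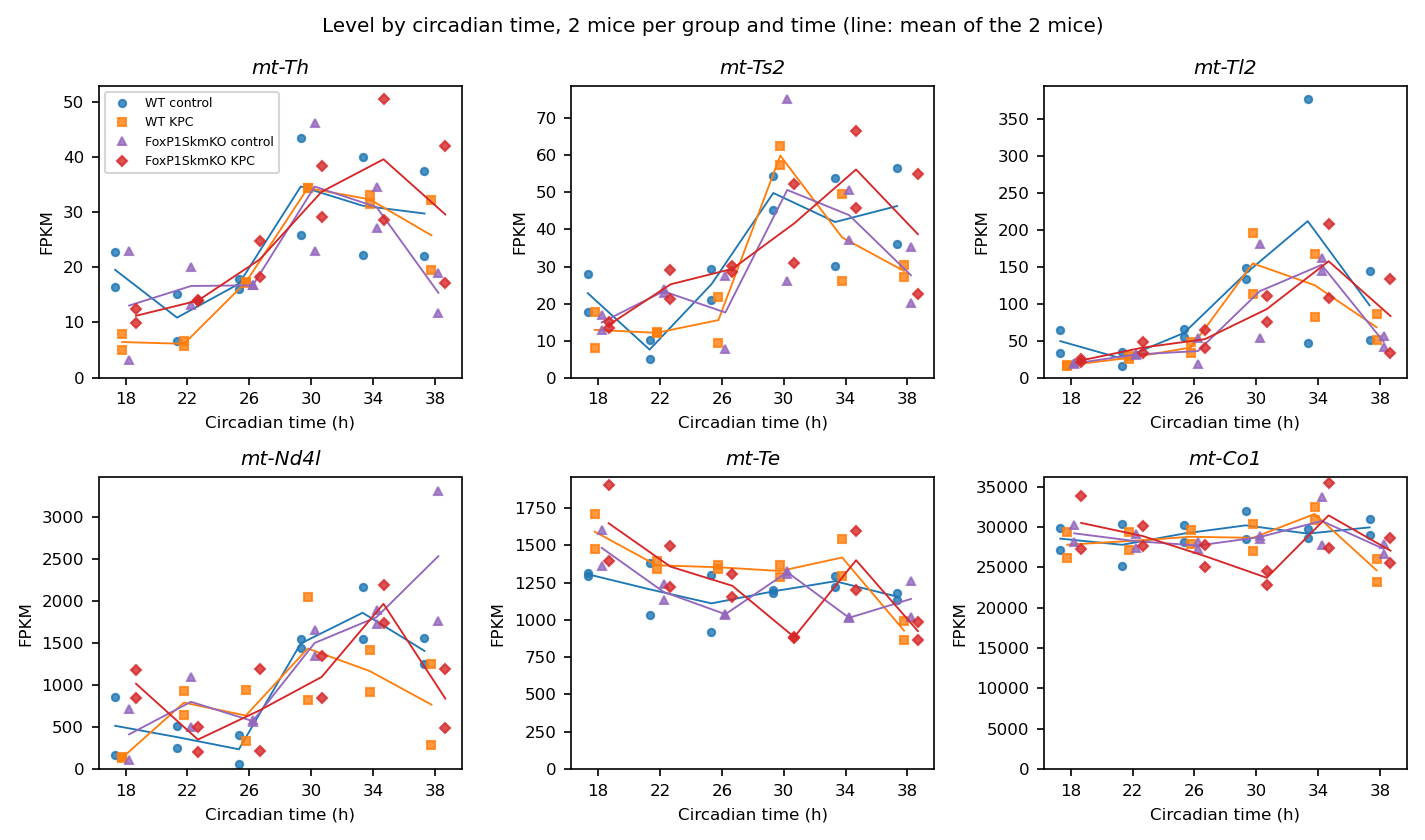
FPKM of 6 mitochondrial genes against circadian time in hours, with 1 point per mouse, 2 mice per group and time, and lines through their mean. mt-Th, mt-Ts2 and mt-Tl2 are highest at CT30 or CT34 in their medians over 8 libraries, and the median of mt-Nd4l is 440 at CT18 and 1728 at CT34, whereas mt-Te is highest at CT18 in all 4 groups and mt-Co1 stays between 22828 and 35505.

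Inside the copied stretch, mt-Nd3, mt-Nd4l and mt-Atp8 had a span like that of these tRNA genes. mt-Nd3 had FPKM of 12.3, 14.5 and 23.3 at CT18 and 55.8, 82.1 and 118 at CT34, without overlap (adjusted p = 4.20e-07). mt-Nd4l had 111, 440 and 1181 at CT18 and 912, 1728 and 2193 at CT34, with overlap of a few libraries (adjusted p = 9.96e-05). mt-Atp8 deviated by -1.10 at CT18 and 0.73 at CT34 (adjusted p = 7.36e-04).

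The share of counts on the nuclear copy was also taken by time, without a test. It rises by construction where the member falls more than its copy. For mt-Nd3 its median was 88.0% at CT18 and 75.2% at CT34, and for mt-Nd4l 36.7% and 13.5%. By their own counts, 5 of the 7 copies differed between times, against 40.6% of all genes. With the counts of the copy added, the calls of mt-Nd3 (adjusted p = 0.0018) and mt-Nd4l (7.4e-05) held. The part of read assignment between gene and copy in these differences was not tested further.

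Among the abundant mRNAs, those called had their highest level at CT34. mt-Nd5 deviated most, by -0.20 at CT26 and 0.21 at CT34 (adjusted p = 0.0045). mt-Nd1, mt-Nd2, mt-Nd4 and mt-Nd6 had adjusted p of 0.018 to 0.031, but of 0.35 to 0.94 with the summed mitochondrial mRNA count as library size, so that relative to the mitochondrial mRNAs as a whole they were not called. Leaving out FoxP1SkmKO control CT34 replicate 1 or FoxP1SkmKO KPC CT34 replicate 2 ended the calls of all 4, and WT KPC CT34 replicate 1 those of mt-Nd1, mt-Nd4 and mt-Nd6. Single calls were also lost without WT control CT34 replicate 2 (mt-Nd1, mt-Nd2, mt-Nd4), WT KPC CT34 replicate 2 (mt-Nd1, mt-Nd4), FoxP1SkmKO KPC CT38 replicate 1, WT control CT38 replicate 1 or WT KPC CT38 replicate 2 (mt-Nd4), and FoxP1SkmKO control or WT KPC CT18 replicate 1 (mt-Nd6), at adjusted p of 0.050 to 0.15. mt-Co1 stayed within 0.11 of its mean on the log2 scale (adjusted p = 0.097), mt-Cytb within 0.13 (0.055), and mt-Atp6 varied by 0.62 with a wide error (0.29). mt-Co2 deviated by -0.53 at CT18 and 0.47 at CT34 (adjusted p = 0.0013), and mt-Co3 spanned 0.76 (0.021, but 0.13 by DESeq2 and 0.058 to 0.068 without FoxP1SkmKO control CT34 replicate 1, FoxP1SkmKO KPC CT18 replicate 1 or CT34 replicate 2, or WT KPC CT34 replicate 1). mt-Rnr1 was highest at CT38 (0.25) and lowest at CT30 (-0.11), at an adjusted p of 0.0088 by edgeR and 0.11 by DESeq2, and mt-Rnr2 was not called (0.11 by edgeR). The DESeq2 time test also used another model, additive in group and circadian time, so tool and model cannot be told apart here.

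A 24 h sinusoid fitted to FPKM in the 12 libraries of each combination called few members at the unadjusted p under 0.01 that the study used. In WT control mice 2 of 36 members with any count were rhythmic, mt-Nd4l (p = 3.76e-04 in the F test, fitted across all genes and not by permutation) and mt-Ts2, against 4.03% of all genes. In WT KPC mice there were 5, mt-Th, mt-Atp8, mt-Tl2, mt-Ts2 and mt-Tp, against 3.48%. FoxP1SkmKO mice had 0 in controls (3.52%) and 2 in KPC mice, mt-Th and mt-Tq (2.25%). The fitted peaks of these were at CT31.7 to CT36.3.

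After adjustment over all genes, mt-Th in WT KPC mice was the sole member called (adjusted p = 0.023), with an amplitude of 77.6% of its mean and a peak at CT32.6. Its fitted peak was at CT33.8 in WT control, CT31.4 in FoxP1SkmKO control and CT32.9 in FoxP1SkmKO KPC mice. The rhythm of control and KPC mice differed at an unadjusted p under 0.05 for mt-Rnr1 in WT mice (4.52% of all genes) and for mt-Tn, the asparagine tRNA gene, in FoxP1SkmKO mice (4.79%). No gene was called in either after adjustment. These counts thus do not show that a member gained or lost a rhythm with tumors.

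Nuclear genes that make, process or regulate mitochondrial RNA were not called with tumors in the average over times. Of 20 tested genes for transcription and replication of the mitochondrial genome, 40 for RNA processing and decay and 16 regulators of biogenesis, 0 were called by edgeR in the averaged KPC and genotype comparisons. At an unadjusted p under 0.05 were 9 of these 76 genes for KPC in WT mice (15.2% of all genes), 3 for KPC in FoxP1SkmKO mice (12.4%), 4 for genotype in control mice (17.2%), 2 for genotype in KPC mice (10.8%) and 5 for the difference between genotypes (6.52%). At single times, edgeR called genes of these lists only in WT mice at CT26, where 1 of 20 transcription and replication genes was lower, 1 of 40 processing genes was higher and 3 were lower, and 3 of 16 regulators were higher, against 7.17% of all genes called. In WT mice, the log2 difference was 0.055 ± 0.048 for Polrmt (the mitochondrial RNA polymerase), -0.020 ± 0.039 for Tfam (which packages the genome and starts transcription), 0.062 ± 0.049 for Twnk (the helicase) and -0.055 ± 0.054 for Ppargc1a (a coactivator of biogenesis). It was -0.036 ± 0.035 for Lrpprc and -0.19 ± 0.20 for Slirp, which together stabilise mitochondrial mRNA. In FoxP1SkmKO mice these 6 were between -0.19 ± 0.20 (Slirp) and 0.12 ± 0.048 (Twnk, adjusted p = 0.26). Between the genotypes they lay at -0.084 ± 0.054 (Ppargc1a) to 0.046 ± 0.19 (Slirp) in control mice and at -0.072 ± 0.055 (Ppargc1a) to 0.091 ± 0.048 (Twnk) in KPC mice, and the difference of the KPC effects was -0.062 ± 0.068 (Twnk) to -0.0040 ± 0.22 (Slirp).

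The nuclear partners of the 13 mRNAs, 80 tested subunits of oxidative phosphorylation, had 2 called genes in WT KPC mice, both lower, against 1.79% of all genes, and 37 at an unadjusted p under 0.05 (15.2% of all genes). They were Atp5g3 (-0.16 ± 0.039, adjusted p = 0.030), an ATP synthase subunit, and Cyc1 (-0.12 ± 0.033, adjusted p = 0.044), cytochrome c1 of complex III. In all, 79 of the 80 had a negative sign, with a median of -0.094, but this rested in part on CT26. At CT26 alone 47 of 80 were called lower (7.17% of all genes called in either direction; median -0.36), whereas 63 of 80 had a positive sign at CT34 and 47 of 80 at CT38. Without CT26, 0 of the 80 were called (0.883% of all genes), 68 were negative and the median was -0.039. In FoxP1SkmKO mice, 65 of 80 were negative (median -0.027), and 0 were called (0.428% of all genes) or at an unadjusted p under 0.05 (12.4%). Without CT26, 37 of 80 were negative there (median 0.0031). Between the genotypes in control mice, Uqcrb (complex III, -0.19 ± 0.054) and Ndufs4 (complex I, -0.15 ± 0.044) were lower in FoxP1SkmKO than in WT, against 3.44% of all genes called, with 23 of 80 at an unadjusted p under 0.05 (17.2% of all genes). Without CT26, 0 of 80 were called (2.42% of all genes). By time of day, 71 of the 80 were called, as were 8 of 20 transcription and replication genes, 19 of 40 processing genes and 12 of 16 regulators, against 40.6% of all genes. Of the named genes, Tfam, Polrmt, Ppargc1a and Slirp were called and Lrpprc and Twnk were not.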

How the data were processed

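The authors deposited raw counts per gene for 48 libraries, made from paired-end reads aligned to mm39. STAR and HTSeq are named in the study's methods and HISAT2 2.0.5 and DESeq2 1.20.0 in the submitters' processing notes, and this conflict was not settled. The authors also deposited FPKM per gene for all libraries. Counts of genes missing from some deposited count tables were recovered as whole reads from FPKM (within 9.204e-14 of whole numbers) and came to at most 0.0064% of a library. Deposited fold changes and p-values of the authors' own comparisons were not used.

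Samples were grouped by labels. Counts were fitted with edgeR 4.0.16 in R 4.3.3 (1 coefficient per group, 24 groups, filterByExpr, TMM, quasi-likelihood F tests, prior degrees of freedom 8.61), and 15637 genes were tested. Adjusted p-values are Benjamini-Hochberg over all of these. The labels name 2 mice per group as separate samples. Rhythms were fitted to FPKM by least squares with numpy 2.4.6 and scipy 1.17.1 (24 h sinusoid, F test with 2 and 9 degrees of freedom; 18 residual degrees of freedom for differences) over 33218 genes. Copies were found with blastn 2.17.0 (at least 500 bases and 90% identity) in GRCm39. The scripts for these tests were checked on simulated data.

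Named members were all mRNA and rRNA genes, the 3 tRNA genes with the highest and the 3 with the lowest mean FPKM, and tRNA genes called in an averaged comparison (none). tRNA genes named beyond this rule were chosen after their values were seen. Further named genes were Polrmt, Tfam, Twnk, Lrpprc, Slirp and Ppargc1a and up to 5 called genes per list. The members and lists were chosen with earlier results of these data known. Alternatives were other library sizes and scalings, no filter on low counts, DESeq2 1.42.0, fits on 4 libraries, an additive model, a replicate block, log2(FPKM + 1) and log2(FPKM + 0.1), CPM of nuclear counts, and each library left out, for which the trended dispersion of the full fit was kept. For time of day, DESeq2 used a likelihood ratio test in an additive model of group and circadian time. Chosen after seeing the data were the comparisons without CT26 (on the fit of all 48 libraries), the fits with copy counts added, and the alternatives of the interaction test.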

Additional observations from a re-analysis of the deposited data

Results flagged for a closer look

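The effect of KPC tumors on mt-Rnr1, the 12S rRNA gene, differed between circadian times in WT mice (edgeR quasi-likelihood F test of 5 contrasts, adjusted p = 0.0468). Log2 differences between KPC and control mice were 0.17 at CT18, 0.30 at CT22, -0.41 at CT26, 0.59 at CT30, 0.89 at CT34 and 0.17 at CT38, each from 2 mice against 2, so that 5 of the 6 times had 1 sign and CT26 the other. The adjusted p was 0.999 without CT26, 0.0566 with the replicate block, 0.0524 when libraries were scaled from nuclear genes only and 0.208 with the summed mitochondrial mRNA count as library size. It was above 0.05 in 31 of the 48 fits that left out 1 library, among them all that left out a WT mouse of CT26 or CT34, and lay at 0.0145 to 0.388 over all 48. The value for mt-Rnr2 was 0.244.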

How the results depend on the processing

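The 6 mRNAs within the stretch copied on chromosome 1 and the tRNA genes with low counts are limited by shared reads and by depth, and 2 mice per group and time limit every single-time result. Without a filter on low counts, the spread of each of the 33218 genes came wholly from a shared trend with level. Member calls were then 10 for KPC in WT, 7 for KPC in FoxP1SkmKO, 3 for the difference between genotypes, 4 and 3 for genotype in control and KPC mice, 10 for WT control CT26, 17 and 18 for the KPC by time tests in WT and FoxP1SkmKO, and 75 over the 12 single-time comparisons. The additive model gave 0 calls for KPC in WT. With the summed mitochondrial mRNA count as library size, calls were 1 for WT control CT26, 0 for KPC by time in WT and 1 over single times, and scaling from nuclear genes or leaving out CT26 also gave 0 for KPC by time in WT. Single-time calls were 2 with DESeq2 on 48 libraries, 19 with DESeq2 on 4 and 4 with edgeR on 4. Time-of-day calls lay at 12 to 25. Rhythm calls after Benjamini-Hochberg adjustment were 0 in WT control, 1 in WT KPC and 0 in FoxP1SkmKO KPC mice and 0 for both differences. They were 1 in WT control and 1 in FoxP1SkmKO control mice with log2(FPKM + 1) and with log2(FPKM + 0.1), and 1 in FoxP1SkmKO KPC mice on CPM of nuclear counts. Mitochondrial counts were 15.3% of nuclear counts at the median. The cause of these shifts was not tested beyond the construction named.

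Replicate numbers showed no pairing of mice shared by all groups. Over 276 pairs of groups the median correlation of same-numbered deviations was -0.0038 (-0.32 to 0.23), with 12 pairs over 0.1. Control and KPC groups of the same genotype and time were not looked at alone, so a pairing limited to them cannot be told from this median. The replicate block left the member calls at 2 for KPC in WT, 18 for time of day and 2 for WT control CT26, and gave 0 for KPC by time in WT (mt-Rnr1, adjusted p = 0.0566).

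Signs of KPC log2 differences turned with the summed mitochondrial mRNA count as library size for mt-Co1 (0.0099 in WT, 0.015 in FoxP1SkmKO), mt-Nd1 (0.017 and 0.012) and mt-Nd2 (0.032 and 0.017), and in FoxP1SkmKO for mt-Nd6 (0.048), mt-Atp6 (0.037) and mt-Co2 (0.067). They turned without CT26 for mt-Nd1 (0.0027) and mt-Nd5 (-0.065) in WT and mt-Atp6 (0.085) and mt-Co2 (0.061) in FoxP1SkmKO, under the additive model for mt-Co2 (0.029 in FoxP1SkmKO), and with copy counts added for mt-Nd4l (0.026 in WT) and mt-Nd3 (0.093 in FoxP1SkmKO).

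With each library left out in turn, calls lay at 0 to 3 for KPC in WT, 0 to 0 for KPC in FoxP1SkmKO, the genotype comparisons and the difference, 12 to 22 for time, 0 to 3 for WT control CT26, 0 to 1 for KPC by time in each genotype and 0 to 2 over single times. Rhythm calls were 1 to 3 in WT control, 2 to 5 in WT KPC, 0 to 1 in FoxP1SkmKO control and 0 to 4 in FoxP1SkmKO KPC mice, and 0 to 3 (WT) and 0 to 4 (FoxP1SkmKO) for differences. Ranges that crossed 0 in WT were -0.054 to 0.0020 for mt-Nd2, -0.026 to 0.087 for mt-Nd5, -0.086 to 0.21 for mt-Atp6, -0.42 to 0.15 for mt-Nd4l and -0.42 to 0.21 for mt-Atp8. In FoxP1SkmKO they were -0.065 to 0.039 for mt-Nd6, -0.13 to 0.11 for mt-Atp6, -0.085 to 0.092 for mt-Co2 and -0.54 to 0.065 for mt-Nd4l.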
